A study of Homo sapiens with 12 samples.

Results

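The genes described here are feedback inhibitors and a transcriptional output of the ERK kinase pathway, followed in the mantle cell lymphoma line Z-138 as a readout of ERK signalling under inhibition of the kinase BTK. The set was defined by symbol and names 10 genes: the phosphatases DUSP2, DUSP4, DUSP5, DUSP6 and DUSP10, the sprouty genes SPRY1 and SPRY2, the SPRED genes SPRED1 and SPRED2, and the transcription factor ETV5. Of these, 8 had a row among the 13820 genes of the count table and all 8 passed the filter on low counts, which left 12602 genes. DUSP4 and ETV5 had no row and were not analysed here. All 12 libraries came from Z-138, an established cell line, carrying a control shRNA or one directed at SMARCA4, which encodes the motor subunit of the SWI/SNF remodelling complex. All cells were grown with doxycycline. Of the 4 groups of 3 libraries, 2 received the solvent DMSO and 2 received 3 µM ibrutinib, which blocks BTK, together with 3 µM venetoclax, which blocks the survival protein BCL2. There was no group with either drug alone, so the effects of ibrutinib and of venetoclax cannot be told apart. The labels give neither the number of SMARCA4 hairpins, the time of treatment nor whether replicates were separate cultures, so the p-values rest on a spread among libraries that may be technical.

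In B cells, the antigen receptor signals through BTK and phospholipase C to activators of RAS, and RAS switches on the kinase chain RAF, MEK and ERK. Active ERK induces genes that switch the pathway off again. DUSP proteins remove the activating phosphates from ERK and related kinases, sprouty proteins act between receptors and RAS, and SPRED proteins bring neurofibromin, which inactivates RAS, to the membrane. Because ERK drives the transcription of several of these genes, the RNA of those genes is widely used as a readout of pathway activity.

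The 250 bases upstream of the RefSeq transcription start (GRCh38.p14) are shown for 2 genes, DUSP2, which fell in all 4 comparisons described below, and SPRY2, which fell with knockdown under drug. Capitals mark every match to the motifs searched on both strands, other than the GC box, in the direction of transcription. DUSP2 lies on the minus strand at chr2:96145441-96145690, and the SPRY2 start shown, the outermost of 3, on the minus strand at chr13:80341127-80341376.
DUSP2: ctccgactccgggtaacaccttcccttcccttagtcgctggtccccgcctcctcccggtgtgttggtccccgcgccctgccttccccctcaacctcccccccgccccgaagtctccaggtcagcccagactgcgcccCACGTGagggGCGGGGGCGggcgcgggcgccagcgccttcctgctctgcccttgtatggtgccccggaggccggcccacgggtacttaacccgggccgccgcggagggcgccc
SPRY2: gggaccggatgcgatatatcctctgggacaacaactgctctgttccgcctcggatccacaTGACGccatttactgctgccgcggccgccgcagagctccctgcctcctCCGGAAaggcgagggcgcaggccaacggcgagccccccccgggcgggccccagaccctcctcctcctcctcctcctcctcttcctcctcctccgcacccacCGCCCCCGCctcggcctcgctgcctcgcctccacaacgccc
In DUSP2 the capitals are an E-box (CACGTG), 113 to 108 bases before the start, and a motif of the EGR transcription factors (GCGGGGGCG), 103 to 95 bases before it. In SPRY2 they are a cAMP response half-element (TGACG) at 190 to 186 bases, an ETS motif (CCGGAA) at 142 to 137 bases and an EGR motif on the opposite strand at 41 to 33 bases. RefSeq entries were matched for 7 of the 10 genes, with 12 starts in all. The EGR letters stood in 3 of these 12 windows (25%), one each of DUSP2, SPRY1 and SPRY2, against 4.72% of all 35116 windows of that length. In DUSP2, SPRY1 and SPRY2 the EGR match overlapped a GC box (GGGCGG), which was present in 6 of the 12 windows (50%) and in 42.6% of all windows. The ETS letters were in 2 of the 12 (16.7%; 14.5% of all), the half-element in 1 (8.33%; 21.2% of all) and the E-box in DUSP2 alone (6.34% of all). The AP-1 motif TGACTCA (4.2% of all), the full cAMP response element TGACGTCA (1.65% of all), the CArG box (1.16% of all) and the NF-kB motif (9.96% of all) were in 0 of the 12. The other SPRY2 starts and the DUSP6 window held no match to any motif searched. These are matches of letters in short windows, and neither binding nor the start in use was measured.

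Total counts ranged from 7279503 to 22528537 per library. The deepest library was replicate 3 of the knockdown cells in DMSO, and the other 11 reached at most 10151679. SMARCA4, the targeted gene, was at 555 to 642 CPM (library-size scaled counts) in the 6 control libraries and at 159 to 184 CPM in the 6 knockdown libraries. The column of control cells under drug, replicate 1, names no treatment and was assigned by elimination of names, so the calls among the 8 genes that rest on it are also given without it. Of the mantle cell lymphoma markers, CCND1 was at 4478 ± 395 CPM (SD, n = 3) in control and 3554 ± 114 CPM in knockdown cells in DMSO, and SOX11 at 336 ± 13.4 and 633 ± 14.4 CPM. Of the B cell markers, 5 of 6 had a row. The summed level of those 5 was 495 to 526 CPM in control cells in DMSO and 542 to 604 CPM under drug, but 243 to 250 CPM in knockdown cells in DMSO and 263 to 278 CPM under drug. For T and NK cells, 3 of 9 markers had a row, with a summed level of 17.5 to 21.4 CPM over the control libraries and 1.75 to 3.54 CPM over the knockdown libraries. No row was present for 5 of 5 monocyte markers or for 6 of 8 fibroblast and epithelial markers. The remaining COL1A1 and VIM summed to 203 to 238 CPM in control cells in DMSO and 210 to 232 CPM under drug. In knockdown cells they summed to 193 to 217 CPM in DMSO and 199 to 209 CPM under drug. The share of 18S and 28S ribosomal RNA was 9.15% ± 0.308 (SD, n = 3) in control cells in DMSO and 10.6% ± 0.330 under drug. It was 10.5% ± 0.525 in knockdown cells in DMSO and 8.36% ± 1.01 under drug. These markers and shares moved with the groups compared below, and their part in the results was not tested.

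The levels of most of the genes were low, which limits what the libraries can show. DUSP2, DUSP5 and SPRED1 exceeded the level set by the filter, 1.15 CPM, in 12 of 12 libraries. SPRY1 and SPRY2 did so in 8, SPRED2 in 6, DUSP10 in 5 and DUSP6 in 4. A gene that passed the filter through the libraries in which it was high is more likely to show a difference, and the counts of genes given below describe these 8 alone.

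**Figure D1:**
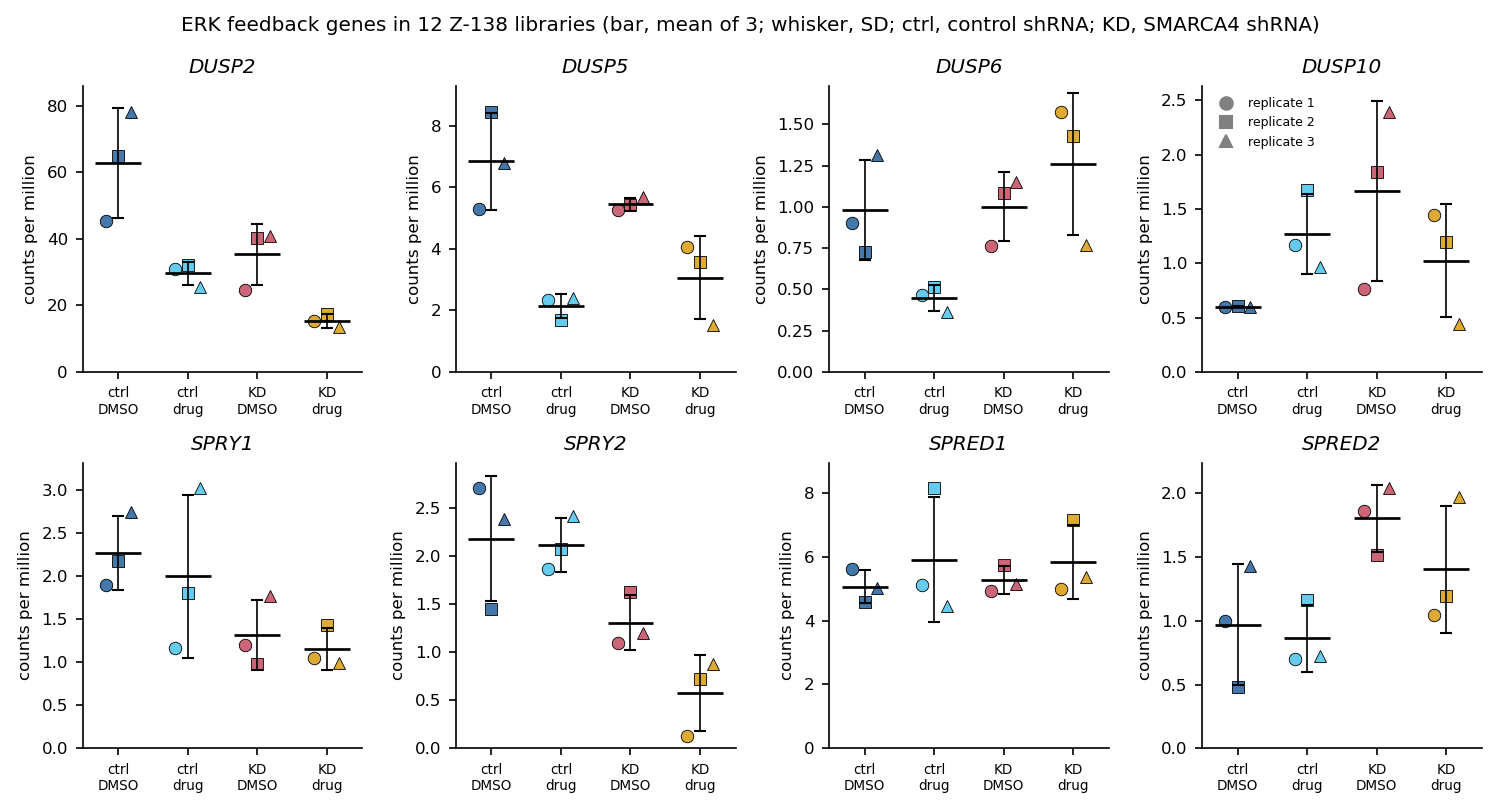
Level of the 8 ERK feedback genes in each library, in CPM on a linear axis from 0 with its own scale for each gene. Points are libraries (the shape gives the replicate number), bars are group means of 3 and whiskers the SD; DUSP2 stood at 45.3 to 78.2 CPM in control cells in DMSO and at 13.4 to 17.5 CPM in knockdown cells under drug.

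DUSP2, a nuclear phosphatase of ERK and p38 induced early after stimulation, was lower with the drug pair in either cell type and lower with SMARCA4 knockdown in either treatment. In control cells in DMSO, DUSP2 (ENSG00000158050) was at 45.3, 64.8 and 78.2 CPM in replicates 1, 2 and 3. Under drug the control cells had 31.0, 32.3 and 25.6 CPM. All 3 libraries under drug were below all 3 in DMSO. In knockdown cells DUSP2 was at 24.7, 40.4 and 41.0 CPM in DMSO and at 15.2, 17.5 and 13.4 CPM under drug, again without overlap. The order of the group means was control in DMSO (62.8 ± 16.5 CPM, SD, n = 3), knockdown in DMSO (35.4 ± 9.22 CPM), control under drug (29.6 ± 3.54 CPM) and knockdown under drug (15.4 ± 2.08 CPM). The 2 middle groups overlapped, and the other neighbours did not.

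With the drug pair, DUSP2 fell by 1.08 on the log2 scale (SE 0.15) in control cells and fell by 1.23 (SE 0.17) in knockdown cells. The adjusted p was 2.40e-05 and 2.68e-05 (edgeR's quasi-likelihood test, Benjamini-Hochberg over all genes tested). With knockdown it fell by 0.79 (SE 0.14; edgeR adjusted p = 4.09e-05) in DMSO and fell by 0.95 (SE 0.18; edgeR adjusted p = 0.000134) under drug. The difference between the drug effects in the 2 cell types, the interaction, was -0.15 (SE 0.23), with a 95% interval from -0.63 to 0.32 (edgeR adjusted p = 0.988). All 4 changes stayed past the threshold in each run that left out 1 library. The values then ranged from -1.27 to -0.89 and from -1.41 to -1.08 for the drug, and from -0.98 to -0.59 and from -1.05 to -0.85 for the knockdown. Without the library assigned by elimination, the drug effect in control cells was -1.11 (edgeR adjusted p = 0.000147) and the knockdown effect under drug was -0.91 (edgeR adjusted p = 0.000767).

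DUSP5, a nuclear phosphatase specific for ERK, was lower under the drug pair, past the threshold in control cells only. DUSP5 (ENSG00000138166) was at 5.30, 8.45 and 6.80 CPM in control cells in DMSO and at 2.33, 1.68 and 2.42 CPM under drug. In knockdown cells it was at 5.25, 5.43 and 5.68 CPM in DMSO and at 4.07, 3.58 and 1.54 CPM under drug. All libraries under drug were below all in DMSO in either cell type. In control cells DUSP5 fell by 1.65 (SE 0.27, 95% interval -2.20 to -1.10; edgeR adjusted p = 0.000213), and its value was -1.72 without the library assigned by elimination. In knockdown cells the log2 fold change was -0.87 (SE 0.25, 95% interval -1.37 to -0.36; edgeR adjusted p = 0.0871). The interaction of 0.78 (SE 0.38; edgeR adjusted p = 0.922) did not pass, so the drug effect on DUSP5 was not shown to differ between the cell types. Knockdown gave -0.31 (SE 0.21; edgeR adjusted p = 0.293) in DMSO and 0.48 (SE 0.31; edgeR adjusted p = 0.264) under drug. The latter was 0.82 (edgeR adjusted p = 0.0341) without replicate 3 of the knockdown cells under drug, the library with 1.54 CPM. The pseudogene DUSP5P1 had its own row with 2 to 7 counts per library and was not tested.

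DUSP6, a cytoplasmic phosphatase specific for ERK and the member of the family most often read as an ERK output, was counted only 3 to 26 times per library. In control cells DUSP6 (ENSG00000139318) had 9, 6 and 11 counts (0.900, 0.725 and 1.31 CPM) in DMSO and 4, 4 and 3 counts (0.466, 0.517 and 0.363 CPM) under drug. The knockdown cells had 7, 10 and 26 counts (0.766, 1.09 and 1.15 CPM) in DMSO and 12, 12 and 7 counts (1.58, 1.43 and 0.768 CPM) under drug. The control libraries under drug were the 3 lowest of the 12. Against them, knockdown libraries under drug were higher by 1.44 (SE 0.50, 95% interval 0.42 to 2.47; edgeR adjusted p = 0.0263). This call was lost in 4 of the 12 runs without 1 library, with adjusted p from 0.0643 to 0.102. Those were the runs without replicate 1 or 3 of the control cells under drug and without replicate 1 or 2 of the knockdown cells under drug. The first of these, without the library assigned by elimination, gave 1.48 (edgeR adjusted p = 0.0643). The filter level was reached by DUSP6 in 0 of 3 control and 2 of 3 knockdown libraries under drug. With these 2 groups alone it did not pass the filter and was not tested. The drug effect in control cells was -1.10 (SE 0.52; edgeR adjusted p = 0.467), with no overlap between the groups. That in knockdown cells was 0.26 (SE 0.39; edgeR adjusted p = 0.907). The interaction of 1.36 (SE 0.65; edgeR adjusted p = 0.914) did not pass, and knockdown in DMSO gave 0.09 (SE 0.40; edgeR adjusted p = 0.898).

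DUSP10, which acts mainly on the stress kinases JNK and p38 and is thus the least ERK-directed of these phosphatases, rose with knockdown in DMSO. DUSP10 (ENSG00000143507) had 6, 5 and 5 counts (0.600, 0.604 and 0.597 CPM) in control cells in DMSO and 7, 17 and 54 counts (0.766, 1.85 and 2.39 CPM) in knockdown cells in DMSO. The knockdown libraries were all higher, by 1.57 on the log2 scale (SE 0.45, 95% interval 0.65 to 2.49; edgeR adjusted p = 0.00742). Without the deepest library, which also had the highest DUSP10 level, the value was 1.11 (edgeR adjusted p = 0.139). The filter level was reached by DUSP10 in 0 of 3 control and 2 of 3 knockdown libraries in DMSO. With these 2 groups alone it did not pass the filter and was not tested. Under drug, control cells had 1.17, 1.68 and 0.967 CPM and knockdown cells 1.44, 1.19 and 0.439 CPM, which overlapped (-0.33, SE 0.47; edgeR adjusted p = 0.645). The drug effect was 1.06 (SE 0.52; edgeR adjusted p = 0.495) in control cells and -0.85 (SE 0.41; edgeR adjusted p = 0.473) in knockdown cells. The interaction was -1.90 (SE 0.66, 95% interval -3.25 to -0.55), with an edgeR p of 0.00723 and an adjusted p of 0.766, and did not pass.

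SPRY2, which restrains signalling from receptors to RAS, was lower in knockdown cells under drug. SPRY2 (ENSG00000136158) was at 2.70, 1.45 and 2.39 CPM in control cells in DMSO and at 1.87, 2.07 and 2.42 CPM in control cells under drug. In knockdown cells it was at 1.09, 1.63 and 1.20 CPM in DMSO and at 0.131, 0.716 and 0.878 CPM under drug, the last from 1, 6 and 8 counts. The knockdown libraries under drug were the lowest 3 of the 12. Against control cells under drug, SPRY2 fell by 1.81 (SE 0.44, 95% interval -2.71 to -0.90; edgeR adjusted p = 0.00200), with values from -2.24 to -1.38 when each library was left out in turn, past the threshold in every such run. Without the library assigned by elimination it was -1.89 (edgeR adjusted p = 0.00397). The filter level was reached by SPRY2 in 3 of 3 control and 0 of 3 knockdown libraries under drug. Of these groups, only the one where SPRY2 was high thus helped it pass the filter. In DMSO the knockdown effect was -0.77 (SE 0.34; edgeR adjusted p = 0.0886), and it was -0.99 (edgeR adjusted p = 0.0465) without replicate 2 of the control cells in DMSO. The drug effect was -0.06 (SE 0.34; edgeR adjusted p = 0.983) in control cells. That in knockdown cells was -1.09 (SE 0.46; edgeR adjusted p = 0.358), with no overlap between the groups. The interaction of -1.03 (SE 0.57; edgeR adjusted p = 0.922) did not pass.

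SPRY1, a close relative of SPRY2, passed in no comparison. SPRY1 (ENSG00000164056) was at 1.90, 2.17 and 2.75 CPM in control cells in DMSO and at 1.20, 0.977 and 1.77 CPM in knockdown cells in DMSO. Under drug it was at 1.17, 1.81 and 3.02 CPM in control cells and at 1.05, 1.43 and 0.988 CPM in knockdown cells. The knockdown effect was -0.67 (SE 0.34, 95% interval -1.36 to 0.02; edgeR adjusted p = 0.137) in DMSO, where the groups did not overlap, and -0.78 (SE 0.39; edgeR adjusted p = 0.136) under drug, where they did. The drug effect was -0.18 (SE 0.35) in control and -0.29 (SE 0.39) in knockdown cells, with edgeR adjusted p of 0.928 and 0.887.

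The SPRED genes passed in no comparison either. SPRED1 (ENSG00000166068) was at 4.59 to 5.60 CPM in control cells in DMSO, 4.47 to 8.14 CPM in control cells under drug, 4.92 to 5.75 CPM in knockdown cells in DMSO and 4.99 to 7.16 CPM in knockdown cells under drug. All 4 groups overlapped. The 95% intervals of its log2 fold changes ran from -0.37 to 0.46 and from -0.44 to 0.43 for knockdown in DMSO and under drug, and from -0.23 to 0.64 and from -0.26 to 0.57 for the drug in control and knockdown cells. SPRED2 (ENSG00000198369) had 10, 4 and 12 counts in control cells in DMSO (0.483 to 1.43 CPM) and 17, 14 and 46 counts in knockdown cells in DMSO (1.52 to 2.04 CPM). The knockdown libraries were all higher, by 0.92 (SE 0.37; edgeR adjusted p = 0.0618). The value passed with limma-voom (0.998, adjusted p = 0.0405) and without replicate 3 of the control cells in DMSO (1.27, edgeR adjusted p = 0.0327). Under drug SPRED2 was at 0.699, 1.16 and 0.725 CPM in control and 1.05, 1.19 and 1.98 CPM in knockdown cells, a difference of 0.73 (SE 0.44; edgeR adjusted p = 0.218).

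**Figure D2:**
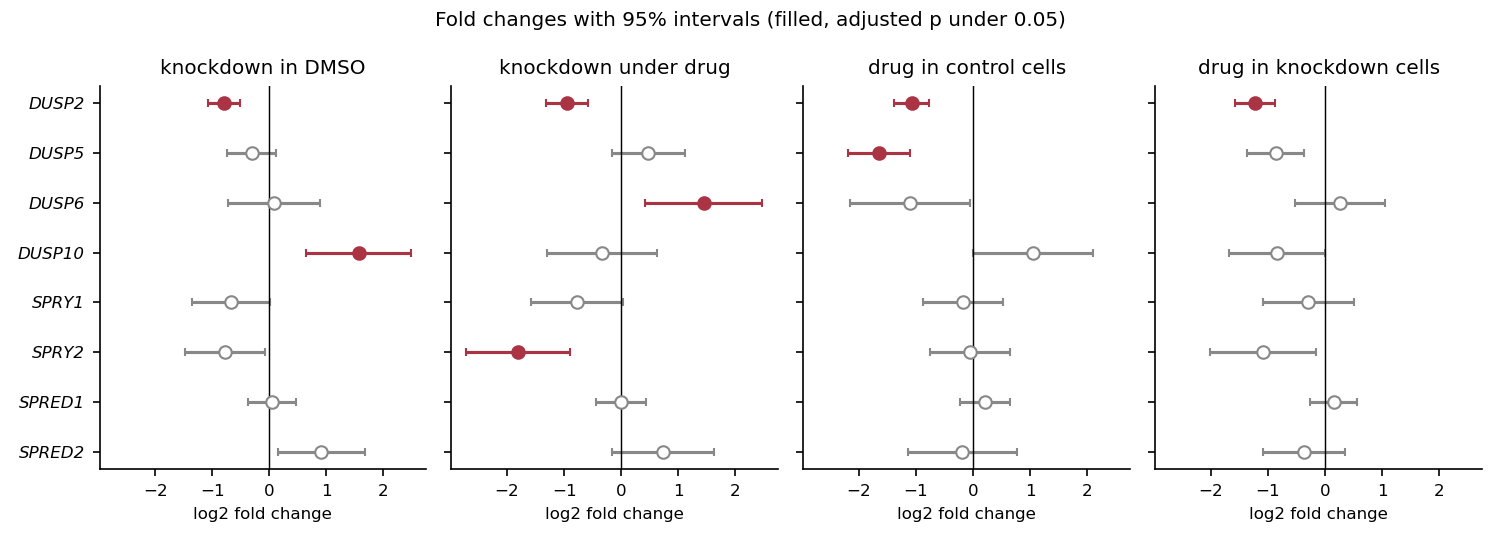
Log2 fold changes of the 8 genes in the 4 comparisons, with approximate 95% intervals from edgeR's quasi-likelihood fit; filled points passed an adjusted p of 0.05. DUSP2 is filled in all 4 panels, DUSP5 with drug in control cells, DUSP10 with knockdown in DMSO, and DUSP6 (higher) and SPRY2 (lower) with knockdown under drug.

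Counted over the 8 genes, the drug comparisons and the knockdown comparisons stood differently against all genes tested. The set was chosen with earlier results of these data known. With the drug pair in control cells, 2 of 8 fell (25.0%), DUSP2 and DUSP5, and 0 rose. Of all genes, 1.29% passed there (0.555% lower, 0.738% higher). In knockdown cells, 1 of 8 fell (12.5%), DUSP2 again, and 0 rose. Of all genes, again 1.29% passed (0.548% lower, 0.738% higher). An unadjusted edgeR p under 0.05 was found for 4 of the 8 in control cells (3 lower, 1 higher) and 4 in knockdown cells (4 lower), against 10.0% and 10.4% of all genes. The median log2 fold change of the 8 was -0.18 in control and -0.61 in knockdown cells, and that of all genes was 0.00 in both. With knockdown in DMSO, 1 rose and 1 fell (25.0% of the 8), where 31.3% of all genes passed (15.1% higher, 16.2% lower). With knockdown under drug, 1 rose and 2 fell (37.5%), where 31.1% of all genes passed (14.8% higher, 16.3% lower). These shares are near the background, and the medians of the 8 were -0.13 and -0.17, again against 0.00. The libraries compared did not overlap for 4 of the 8 genes with knockdown in DMSO and 3 with knockdown under drug, against 42.9% and 41.0% of all genes. With the drug pair they did not overlap for 4 in control cells (3 lower, 1 higher) and 3 in knockdown cells (3 lower), against 14.6% and 15.2% of all genes. The drug comparisons share no library with each other, nor do the knockdown comparisons, but each drug comparison shares libraries with each knockdown comparison. In bulk RNA, fewer cells with a transcript and less transcript per cell cannot be told apart. Effects of SMARCA4 loss and of the construct that carries the hairpin cannot be told apart either.

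None of the 8 passed the test of the interaction (0 by edgeR, 0 by DESeq2, 0 by limma-voom), and 3 (DUSP5, DUSP6 and DUSP10) had an unadjusted edgeR p under 0.05. Over all genes, 0.0238% passed, and 5.35% had an unadjusted p under 0.05. The former are 3 genes, 2 of them the 18S and 28S RNA rows. Their number was 0 without those rows and 1 to 3 over left-out libraries. The plot of drug responses places each gene by its change in both cell types.

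**Figure D3:**
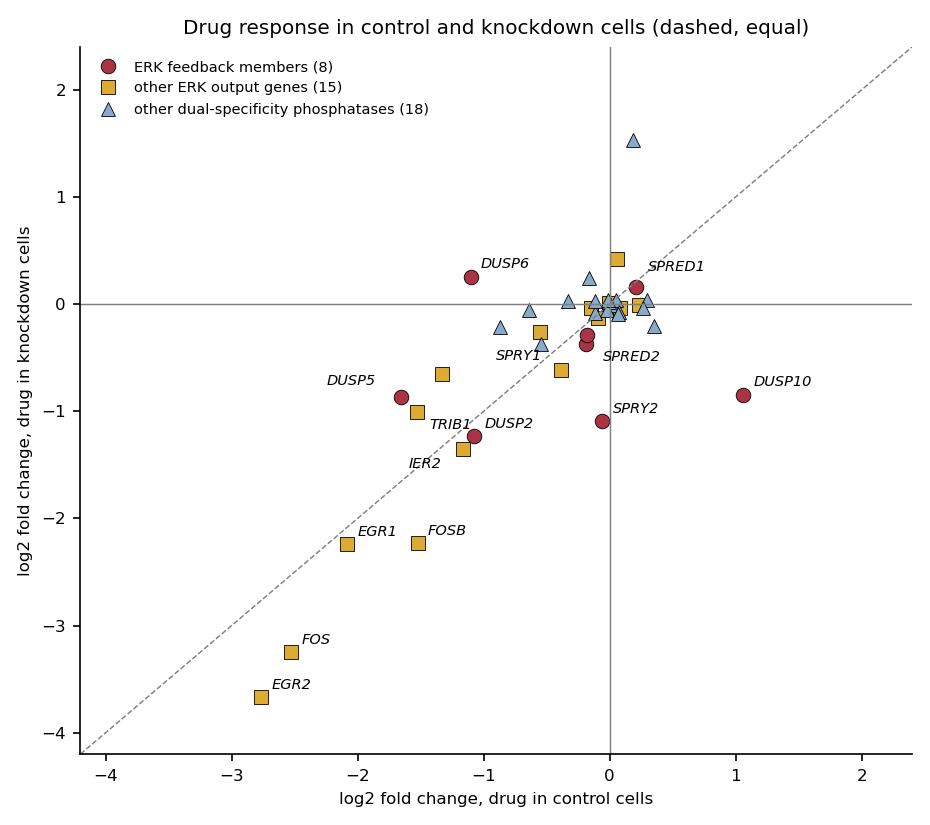
Log2 fold change with the drug pair in control cells (horizontal) and in knockdown cells (vertical) for the 8 ERK feedback genes, 15 other ERK output genes and 18 other dual-specificity phosphatases; the dashed line marks equal change. DUSP2 lies near the line at -1.08 and -1.23, DUSP6 and DUSP10 lie off it with SEs of 0.39 to 0.52 on each axis, and EGR1 lies at -2.08 and -2.24.

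BTK itself, the target of ibrutinib, was lower in knockdown cells. Its level was 49.1, 48.1 and 45.5 CPM in control cells in DMSO, 42.2, 43.5 and 44.5 CPM in control cells under drug, 26.4, 29.9 and 26.8 CPM in knockdown cells in DMSO and 21.1, 23.3 and 24.1 CPM in knockdown cells under drug. With knockdown it fell by 0.79 in DMSO (edgeR adjusted p = 1.59e-09) and fell by 0.92 under drug (edgeR adjusted p = 4.46e-10). The drug effect was -0.13 (edgeR adjusted p = 0.630) in control and -0.27 (edgeR adjusted p = 0.170) in knockdown cells. Of 14 tested genes that link the B cell receptor to RAS, BTK included, 8 fell and 0 rose with knockdown in DMSO (57.1%, against 16.2% of all genes lower), and 9 fell and 0 rose under drug (64.3%, against 16.3% lower). PIK3CD, the catalytic subunit of PI3K delta, fell in both treatments (log2 fold change -0.88 in DMSO and -0.91 under drug). Some of the 14 genes also belong to the B cell markers given above. With the drug pair 0 of the 14 passed in either cell type by edgeR, DESeq2 or limma-voom. In each cell type 3 had an unadjusted edgeR p under 0.05, all higher in control cells and all lower in knockdown cells. Of all genes, 10.0% in control and 10.4% in knockdown cells had such a p in either direction.

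Some of the other genes that ERK is known to induce also fell under the drug pair. Of 15 tested, 6 fell and 0 rose in control cells (40.0%, against 1.29% of all genes), and 7 fell and 0 rose in knockdown cells (46.7%, against 1.29%). The other 9 and 8 did not pass, and the medians of the 15 were -0.55 and -0.61, against 0.00 over all genes. These counts are by edgeR. By DESeq2, 6 of the 15 passed in control and 5 in knockdown cells, and by limma-voom 5 and 5. The immediate early factor EGR1 fell in both cell types, with log2 fold changes of -2.08 (SE 0.34) in control and -2.24 (SE 0.33) in knockdown cells. For IER2, also an immediate early gene, they were -1.17 (SE 0.19) and -1.35 (SE 0.19). TRIB1, a pseudokinase, fell as well (-1.53, SE 0.20, in control cells and -1.01, SE 0.20, in knockdown cells), the latter -0.73 (edgeR adjusted p = 0.148) without the deepest library. Without the library assigned by elimination, the values in control cells were -2.04 for EGR1, -1.17 for IER2 and -1.46 for TRIB1, all past the threshold. KLF6, another of the 6 that fell in control cells, lost its call without that library (-0.30, edgeR adjusted p = 0.302). The KLF6 call was lost in 5 of the 12 runs that left out 1 library, that run among them. None of the 15 passed the interaction (0 by edgeR, DESeq2 and limma-voom, and 0 with an unadjusted edgeR p under 0.05). With knockdown, 3 rose and 4 fell in DMSO (46.7%, against 31.3% of all genes), and 2 rose and 3 fell under drug (33.3%, against 31.1%). Cyclin D1 (CCND1), the oncogene of mantle cell lymphoma, fell in both treatments (-0.33 in DMSO and -0.31 under drug), and KLF6, a zinc finger factor, rose by 0.58 and 0.35. The KLF6 call under drug was lost without replicate 1 of the control cells under drug (0.26, edgeR adjusted p = 0.0671) and without replicate 3 of the knockdown cells under drug (0.27, edgeR adjusted p = 0.0624).

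Among dual-specificity phosphatases outside the set, 18 were tested and 0 passed with the drug pair in either cell type by edgeR, DESeq2 or limma-voom. Of the 18, 3 in control and 0 in knockdown cells had an unadjusted edgeR p under 0.05, against 10.0% and 10.4% of all genes. With knockdown, 3 rose and 1 fell in DMSO (22.2%, against 31.3% of all genes), and 4 rose and 2 fell under drug (33.3%, against 31.1%), which is near or below the background. DUSP9, a cytoplasmic phosphatase that prefers ERK, had 19, 21 and 18 counts in control cells in DMSO and 1, 2 and 0 in knockdown cells. Under drug it had 16, 22 and 23 counts in control cells and 2, 3 and 1 in knockdown cells. All knockdown libraries were below all control libraries. The pooled knockdown level of DUSP9 was 3.37% of the control level in DMSO (exact interval 0.675 to 10.4%) and 9.63% under drug (3.40 to 22.2%), and these intervals cover counting error only. DUSP9 passed with edgeR adjusted p of 1.67e-07 and 9.39e-06. Its knockdown libraries, at most 0.358 CPM, lay below the filter level of 1.15 CPM. DUSP9 was thus tested only through the control libraries, where it was high. DUSP14 rose by 0.54 in DMSO and by 0.56 under drug, and the former gave an edgeR adjusted p of 0.0687 without the deepest library. Of 5 further sprouty, SPRED and PEA3 genes (SPRY3, SPRY4, SPRED3, ETV1 and ETV4), 0 had a row.

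**Figure D4:**
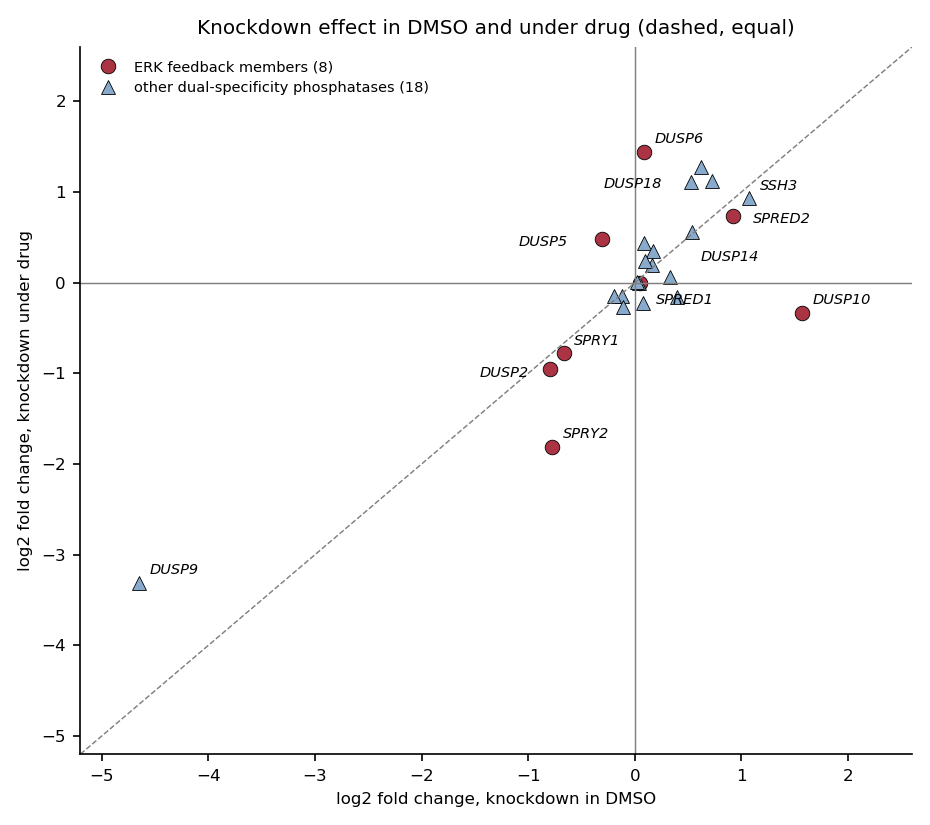
Log2 fold change with SMARCA4 knockdown in DMSO (horizontal) and under drug (vertical) for the 8 ERK feedback genes and 18 other dual-specificity phosphatases; the dashed line marks equal change. DUSP9 stands apart at the lower left on fitted values that rest on 0 to 3 counts per knockdown library, and DUSP10 and DUSP6 lie far from the line.

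Genes of the cascade itself and its other brakes passed in both directions with knockdown, beside many that did not pass. Of 36 tested genes from RAS to the ERK substrates, 6 rose and 9 fell with knockdown in DMSO (41.7%, against 31.3% of all genes), and 6 rose and 10 fell under drug (44.4%, against 31.1%). In DMSO and under drug, the log2 fold changes were -0.71 and -0.79 for RASGRP2, an activator of small GTPases of the RAS family, -0.83 and -1.04 for ELK3, an ETS factor phosphorylated by ERK, and -0.72 and -1.08 for RPS6KA2, a kinase activated by ERK. With the drug pair, 1 of the 36 rose in control cells, the RAS activator RASGRP3 (0.87, edgeR adjusted p = 0.0206), and 1 fell in knockdown cells, the adaptor GRB2 (-0.25, edgeR adjusted p = 0.0353). The RASGRP3 call was lost in 3 and the GRB2 call in 5 of the 12 runs that left out 1 library, and the latter also with library totals (edgeR adjusted p = 0.0733) and with the replicate block (edgeR adjusted p = 0.0561). Of 18 further inhibitors of RAS and ERK, 2 rose and 5 fell with knockdown in DMSO (38.9%, against 31.3% of all genes), and 4 rose and 5 fell under drug (50%, against 31.1%). PTPN7, a tyrosine phosphatase that inactivates ERK in blood cells, fell in both treatments (-1.21, SE 0.11, in DMSO and -1.48, SE 0.12, under drug), and so did the adaptor DOK3 (-0.87 and -0.70). Under the drug pair, 0 of these 18 passed in control cells by edgeR, DESeq2 or limma-voom (1 had an unadjusted edgeR p under 0.05, against 10.0% of all genes). In knockdown cells 1 passed by edgeR, RASA4 (-0.88, edgeR adjusted p = 0.0448), and 0 by DESeq2 or limma-voom. The RASA4 call was lost in 5 alternative settings, the replicate block among them (adjusted p up to 0.114), and in 9 of the 12 runs that left out 1 library. Of 13 JNK and p38 kinase genes, the pathway on which DUSP10 acts, 2 rose and 3 fell with knockdown in DMSO (38.5%, against 31.3% of all genes), and 1 rose and 3 fell under drug (30.8%, against 31.1%), near the background. The kinase MAP3K1 rose by 0.53 and 0.58, and MAPK12, a p38 kinase, fell (-0.46 and -0.65). Under the drug pair, 0 of the 13 passed in either cell type by edgeR, DESeq2 or limma-voom. In each cell type 2 had an unadjusted edgeR p under 0.05, against 10.0% of all genes in control and 10.4% in knockdown cells.

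Across the 12 libraries, the profile of DUSP2 was compared with the other tested genes whose log2 CPM averaged at least 3, as a description. The genes most like it were GALNT2 (r = 0.92), KLF2 (r = 0.92), NPTX1 (r = 0.91), SULT1A3 (r = 0.90) and ADRBK2 (r = 0.90). SULT1A3 has a near-identical copy, so its counts are uncertain. Of the other 7 ERK feedback genes, SPRY2 (r = 0.67), DUSP5 (r = 0.65) and SPRY1 (r = 0.59) were closest to DUSP2, and SPRED2 (r = -0.25) was farthest. For DUSP6, the genes most alike were USP46, TEF and ZNF175 (r = 0.89 each), then ZCCHC2 and MTFR1L (r = 0.88 each). DUSP5 had r = 0.52 with DUSP6, DUSP2 had -0.02 and SPRY2 -0.57. The 12 points fall into 4 groups, share libraries and depth, and carry no p, and at 3 to 26 counts the DUSP6 profile is imprecise.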

How the data were processed

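RNA of 12 Z-138 libraries in 4 groups of 3 was read from mRNA 3′ ends (Lexogen QuantSeq kit, per the labels). Per the submitters' processing notes, the build was hg19 and the tools HISAT2, HTSeq and bcl2fastq (2.17.1.14). The annotation release, strand setting and other versions were not given in the sources used here, so reads of overlapping or antisense genes cannot be told apart. The authors deposited whole-number counts per gene, not normalized, for 13820 genes (1656 with no symbol, lowest row total 13). Of the columns, 11 name their sample, and 1 was assigned by elimination of names.

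Counts were filtered with edgeR 4.0.16 filterByExpr (4 groups, minimum count 10, minimum total 15; 12602 genes kept, 1218 removed), scaled by TMM and fitted in R 4.3.3 with a quasi-likelihood model of all 12 libraries. Residual degrees of freedom were 8, prior ones 22.5, and the biological coefficient of variation was 5.69%. The F tests are two-sided and adjusted by Benjamini-Hochberg over all 12602 genes, with a threshold of 0.05, and "rose" and "fell" mark genes past it. The SE was derived from the log2 fold change and its F statistic, and 95% intervals are approximate. CPM is a count scaled to the library's total over tested genes times its TMM factor. The code was tested on simulated data.

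The genes, the pathway lists and the tests were chosen with earlier results of these data known. Named genes were the 10 of the set, SMARCA4, BTK, up to 4 genes per list with the smallest adjusted p in each comparison, and the 5 genes most like DUSP2 and DUSP6 by Pearson correlation of log2 CPM (prior count 2, mean of at least 3); not all are printed, and 1 is not reported here. Alternatives were 2 other scalings, 2 other filters, DESeq2 1.42.0, limma-voom (limma 3.58.1), the groups compared alone, a replicate block and leaving out each library. Leaving out the 18S and 28S RNA was added after seeing the data. Promoter windows are from RefSeq.

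Replicates differed by more than sampling noise (chi-square per degree of freedom 1.83 to 4.67).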

Additional observations from a re-analysis of the deposited data

Results flagged for a closer look

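RASGRP3, a RAS activator that works below the B cell receptor, was higher under the drug pair in all 3 control libraries and lower in all 3 knockdown libraries, but neither the change in knockdown cells nor the difference between the cell types passed. Its level was 4.61 ± 0.964 CPM (SD, n = 3) in control cells in DMSO and 8.37 ± 1.87 CPM under drug, and 4.17 ± 0.617 CPM in knockdown cells in DMSO and 3.00 ± 0.463 CPM under drug. In either cell type the groups did not overlap: 3.50 to 5.25 against 6.29 to 9.91 CPM in control cells, and 3.47 to 4.66 against 2.49 to 3.40 CPM in knockdown cells. The drug effect was 0.87 (SE 0.21, edgeR adjusted p = 0.0206) in control cells, a call lost without replicate 1 of the control cells in DMSO and without replicate 1 or 2 of those under drug. It was 0.73 (edgeR adjusted p = 0.215) without the library assigned by elimination. In knockdown cells it was -0.49 (SE 0.24, edgeR adjusted p = 0.457). The interaction was -1.37 (SE 0.31, 95% interval -2.01 to -0.73), with an edgeR p of 0.000131 and an adjusted p over all genes of 0.164, and so did not pass. It was -1.22 (edgeR adjusted p = 0.559) without the library assigned by elimination.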

How the results depend on the processing

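Of 800 fold changes of the 8 genes under the alternatives and left-out libraries, 790 kept their side of the threshold, 4 moved past it and 6 moved below it, and 0 past it in either fit turned direction. Fits in which a gene did not pass the filter are not among the 800, and most of the 800 had not passed in the main fit. All 6 that moved below it were of DUSP6 with knockdown under drug or DUSP10 with knockdown in DMSO. The count of the 8 past the threshold with knockdown in DMSO, 2, was 1 with a filter at 5 CPM in 3 libraries, which kept DUSP2, DUSP5 and SPRED1 alone. It was also 1 with the 2 groups alone, where DUSP10 did not pass the filter on low counts and was not tested. It ranged from 1 to 3 over left-out libraries. With knockdown under drug, 3, it was 1 with the 5 CPM filter, 2 with DESeq2 (DUSP6 1.48, adjusted p = 0.0661), and 2 to 4 over left-out libraries. With those 2 groups alone, DUSP6 did not pass the filter on low counts and was not tested, while DUSP2 and SPRY2 kept their calls. The counts with drug and for the interaction did not move by more than 1.5 times. Over all genes, the drug effect in control cells gave 106 calls in place of 163 without replicate 1 of the control cells under drug. In knockdown cells it gave 100 in place of 162 without the deepest library and 102 without replicate 1 of the knockdown cells under drug. With library totals in place of TMM, knockdown under drug split into 2691 higher and 1447 lower, in place of 1860 and 2059, and drug in control cells into 74 and 85, in place of 93 and 70. In knockdown cells the drug split was 132 and 53, in place of 93 and 69. FOS, an ERK output gene, fell by edgeR (-2.53 in control and -3.25 in knockdown cells) and lost both calls with limma-voom (adjusted p = 0.127 and 0.0561). With the replicate number as a block, the counts of the 8 were 2, 3, 2, 1 and 0, as without it; same-numbered libraries deviated with correlations of -0.116 to 0.0821, so the numbers were not taken as pairs, and 6 of 18 correlations were highest for the own number. The causes of these shifts were not tested. Depth limits DUSP6, DUSP10, SPRY1, SPRY2 and SPRED2, which had at most 54 counts in any library.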
